A study of Mus musculus with 6 samples.

Results

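The RNAs encoded by the mitochondrial genome were examined in macrophages sorted from the mammary glands of tumour-bearing mice. They were taken as every gene of the deposited table whose symbol begins with mt-, which gave 37 of 43432 genes: 2 ribosomal RNA genes, 13 protein-coding genes and 22 transfer RNA genes. All 37 lie on the mitochondrial chromosome in the table, and no other gene of the table does.

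The animals were female FVB/N mice carrying MMTV-PyMT, a transgene that places the polyomavirus middle T oncogene under a mammary tumour virus promoter active in mammary epithelium, so that tumours form in the glands. All samples carry it, and both groups come from tumour-forming glands, since no tumour-free gland is among the 6 samples. Macrophages were sorted as live CD45+, MHCII+ and CD14+ cells from digested glands at 2 ages, and each of them, 8 and 11 weeks, has 3 libraries made from amplified total RNA. Sample titles carry a number from 1 to 3 after the letters an, without stating that each is a mouse of its own. The p-values therefore speak of the spread among these libraries, part of which may be technical.

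Mitochondrial DNA is a small circle that is transcribed from both strands into long precursors. Transfer RNAs lie between most of the other genes, and their excision releases the ribosomal RNAs and messengers. The messengers encode subunits of respiratory complexes I, III, IV and V, and they are translated on mitochondrial ribosomes built around the 2 ribosomal RNAs, while all the proteins that copy, transcribe, process and translate the genome are made from nuclear genes. In macrophages, respiratory chain activity is known to change with the activation state.

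Recovered depth was 38784434 to 75004880 reads per library. All 9 macrophage markers of a fixed list (Csf1r, Emr1, Cd68, Mertk, Fcgr1, Itgam, Lyz2, Cd163 and Mrc1) were above 0, with summed levels of 694340 to 891716 normalized counts at 8 weeks and 726322 to 833212 at 11 weeks. Most of this sum was Lyz2, at 411885 to 623180 and then 441201 to 540158. Single markers went both ways without overlap: Csf1r was lower at 11 weeks, and Fcgr1, Cd163 and Mrc1 were higher. The 5 sort antigen genes (Ptprc, Cd14, H2-Ab1, H2-Aa and H2-Eb1) summed to 332223 to 407250 normalized counts at 8 weeks and to 203387 to 310598 at 11 weeks, but they did not go one way: Ptprc and H2-Ab1 were lower at 11 weeks without overlap, and Cd14 was higher, at 19463 to 23110 and then 30445 to 38151. Markers of other cells were far lower, and the summed levels for epithelium, neutrophils, fibroblasts and endothelium were higher in every 11-week library than at 8 weeks, though most single markers overlapped. Without overlap, 5 of 12 epithelial, 3 of 8 neutrophil, 2 of 7 fibroblast and 1 of 6 endothelial markers were higher at 11 weeks, and 1 endothelial marker, Tek, was lower. The 12 mammary epithelial markers, all above 0, summed to 9246 to 12706 normalized counts at 8 weeks and 26211 to 50366 at 11 weeks. Most of this sum was Csn3, at 5232.1 to 8277.1 and then 19883.5 to 32482.5. The 5 epithelial markers without overlap were Csn2, Csn3, Wap, Wfdc18 and Krt19, while Epcam, Krt8, Krt18, Krt5, Krt14, Cdh1 and Elf5 overlapped. The 8 neutrophil markers, of which the granule gene Elane was at 0 in every library, summed to 71.8 to 317.4 and 1851 to 3077, and the 7 fibroblast markers, all above 0, to 687.6 to 1081 and 1348 to 3055. The 6 endothelial markers summed to 404.6 to 543.1 and 674 to 1175, and the summed T cell, B cell, NK cell and erythroid markers overlapped between ages, at no more than 3374, 408.8, 131.1 and 133.2. Most of the T cell sum was Cd4, at 2575 to 3071 and then 1645 to 2829. Higher at 11 weeks without overlap were 2 of 6 T cell, 1 of 5 NK cell and 1 of 5 erythroid markers. The 5 B cell markers all overlapped, and no marker of these lists was lower without overlap. In bulk RNA, fewer cells of a type and less RNA per cell cannot be told apart.

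The sequences that bear on what could be counted are given first, because 13 of the 37 genes were listed at 0 in all 6 libraries. These were the protein-coding genes mt-Co2, mt-Atp8, mt-Atp6, mt-Co3, mt-Nd3 and mt-Nd4l and the transfer RNA genes mt-Tw, mt-Ty, mt-Ts1, mt-Td, mt-Tk, mt-Tg and mt-Th. The protein-coding genes among them encode subunits of cytochrome c oxidase (mt-Co2, mt-Co3), ATP synthase (mt-Atp6, mt-Atp8) and NADH dehydrogenase (mt-Nd3, mt-Nd4l). A gene listed at 0 is described here as listed at 0 and not as silent. Of the 13, 10 lie next to each other, apart from mt-Tr, in a stretch of the mitochondrial genome whose protein-coding genes, apart from mt-Atp8, have annotated pseudogenes on chromosome 1.

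With those of mt-Co1 and mt-Nd4, chromosome 1 carries 7 such pseudogenes, Gm29216, Gm28661, Gm10925, Gm28437, Gm28438, Gm10222 and Gm28439, all on the minus strand. In GRCm38 they run from position 24611535 to 24616197 and their counterparts lie between mitochondrial bases 6390 and 11042. Of these 4653 bases, 4136 were compared with a pseudogene, and the 517 between the pseudogenes, which hold most of mt-Atp8 and nearly all of the transfer RNA genes there, were not read on chromosome 1. Aligned without gaps, Gm28661 matched mt-Co2 over 681 bases with 0 mismatches, Gm10925 matched mt-Atp6 over 678 bases with 0, Gm28437 matched mt-Co3 over 783 bases with 0, Gm10222 matched mt-Nd4l over 294 bases with 0, and Gm28439 matched mt-Nd4 over 876 bases with 0. Gm28438 matched mt-Nd3 over 345 bases with 1 mismatch, T3C, and Gm29216 matched the end of mt-Co1 over 483 bases with 1 mismatch, A1066T, with positions counted from 1 at the first base of the mitochondrial gene. The opening 60 bases of 3 mitochondrial genes are shown beside a nuclear copy, from the GRCm38 reference transcripts of GENCODE, with the bases that differ in capitals. mt-Co2 (chrMT:7013-7072, plus strand) is shown for a gene listed at 0, beside Gm28661 (chr1:24615506-24615565, minus strand). mt-Nd3 (chrMT:9459-9518, plus strand) is shown for its difference from Gm28438 (chr1:24613060-24613119, minus strand). mt-Nd6 (chrMT:14011-14070, minus strand) is shown for a gene with values above 0, beside Gm11408 (chr4:80003855-80003914, minus strand).
mt-Co2: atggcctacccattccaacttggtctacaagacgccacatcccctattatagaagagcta
Gm28661: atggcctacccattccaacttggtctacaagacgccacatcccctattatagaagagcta
mt-Nd3: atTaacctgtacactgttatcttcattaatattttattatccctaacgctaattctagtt
Gm28438: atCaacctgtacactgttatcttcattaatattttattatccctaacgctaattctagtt
mt-Nd6: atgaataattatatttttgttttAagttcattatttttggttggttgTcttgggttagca
Gm11408: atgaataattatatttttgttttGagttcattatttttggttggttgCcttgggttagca

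The mt-Co2 pair has no difference in this window and the mt-Nd3 pair has 1. The mt-Nd6 pair has 2 differences in the window and 33 mismatches over 519 aligned bases. These are reference sequences, and those of FVB/N mice were not read.

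Listing at 0 went with the position between bases 6390 and 11042. All 6 protein-coding genes wholly inside these bounds were listed at 0. So were 4 of the 5 transfer RNA genes inside them, whose counterparts on chromosome 1 were not read, and the exception, mt-Tr, which encodes the arginine transfer RNA, reached 0.9 to 6.9 normalized counts. The spacing of the pseudogenes matches that of the mitochondrial genes except for a shift of 1 base between mt-Nd3 and mt-Nd4l, the interval that holds mt-Tr. Of 24 genes outside the bounds, 3 were listed at 0 (mt-Tw, mt-Ty and mt-Th). The 2 genes that lie partly inside, mt-Co1 and mt-Nd4, were above 0 in every library. Every gene was also cut into windows of 50 bases, and each window was looked for in 141730 nuclear transcripts on both strands. Of the protein-coding genes listed at 0, 5 had 98% to 100% of their windows in a nuclear transcript, as shown in the plot of copies and levels along the genome. No 50-base window of any of the 22 transfer RNA genes, listed at 0 or not, was found in a nuclear transcript (0%). For the 7 protein-coding genes above 0 the share was 0% to 62.2%, with the highest in mt-Nd4 (62.2%) and mt-Co1 (51.1%) and 0% in mt-Nd1, mt-Nd6 and mt-Cytb. With windows of 100 bases the share of the same 5 genes was 97.6% to 99.9%, while mt-Co1 went from 69.7% with 25 bases to 30.8% with 100.

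mt-Atp8 was the exception among the protein-coding genes listed at 0, with 0% of its 50-base windows in a nuclear transcript. It lies between mt-Co2 and mt-Atp6, whose copies stand in the same register on chromosome 1, and the sequence between those pseudogenes was not used here. Its last 43 bases (chrMT:7927-7969) are also the opening bases of mt-Atp6, so reads there belong to both genes. They are shown in capitals after 20 bases that only mt-Atp8 has (chrMT:7907-7969, plus strand).
mt-Atp8: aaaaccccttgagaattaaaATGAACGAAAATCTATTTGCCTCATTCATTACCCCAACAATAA

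**Figure D1:**
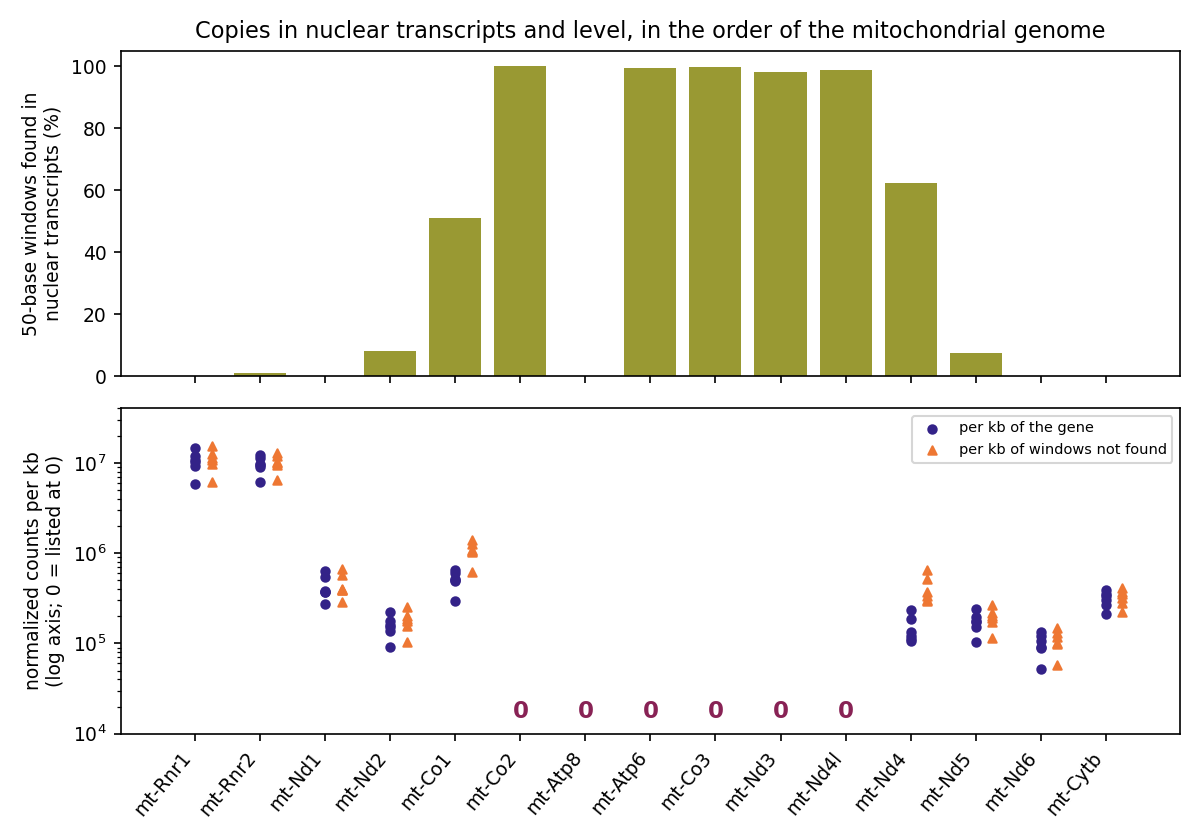
Upper panel: share of 50-base windows of each mitochondrial rRNA and protein-coding gene that occur exactly in a nuclear transcript (percent), in genome order. Lower panel: normalized count of the whole gene per kilobase in the 6 libraries, on a log axis. It is divided by the length of the gene (circles) or by its windows not found in a nuclear transcript (triangles). The mark 0 stands for the 6 genes listed at 0. Of these, mt-Atp8 has 0% and the other 5 have 98.0% to 100% of their windows in nuclear transcripts.

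The nuclear copies themselves were counted at low levels. How reads that match both a copy and its mitochondrial gene were counted is not known, so these counts are not amounts of RNA from the copies. Of the 7 copies on chromosome 1, 6 reached at most 119.6 normalized counts in any library. Gm28438, the copy of mt-Nd3 with the T3C difference, had 271.1, 504.3 and 491.1 in the 8-week libraries and 381.6, 478.8 and 513.9 in the 11-week libraries, the highest of the 7 in every library, and its ages overlapped. Copies elsewhere in the genome differed more from their source. Gm13340 on chromosome 2 matched all 1545 bases of mt-Co1 with 37 mismatches and was at 651.8 to 1468 normalized counts, and Gm11410 on chromosome 4 matched 1142 bases of mt-Cytb with 81 mismatches and was at 13.4 to 46.1.

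The 24 genes above 0 took on average about as large a share of the libraries as all nuclear genes, and that share differed more among the 8-week libraries than between the means of the ages. Of all normalized counts it was 38.5%, 48.3% and 56.7% in the 8-week libraries and 50.8%, 48.3% and 52.7% in the 11-week libraries, or 47.8% ± 9.12 and 50.6% ± 2.23 (SD, n = 3 per age). The 11-week libraries all lay inside the 8-week range. Within the 8-week group replicate 1 was the lowest of the 6 libraries and replicate 3 the highest. Counting error is small beside this: the Wilson 95% interval on the reads was 38.469% to 38.497% in replicate 1 and 56.685% to 56.707% in replicate 3, and it covers counting error only, since reads without molecular identifiers are not independent molecules. The libraries also differed in depth, with 48504657, 38784434 and 75004880 reads at 8 weeks, so the deepest library had the highest share but the shallowest did not have the lowest. The part of depth in the difference was not tested.

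The direction of the average difference rested on 1 library. The share was 2.80 percentage points higher at 11 weeks with all libraries, 7.23 points higher without 8-week replicate 3 and 1.87 points lower (a difference of -1.87) without 8-week replicate 1.

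In normalized counts the mitochondrial total varied between libraries while the total of all other genes stayed within a narrow range. The 8-week libraries held 16643348, 25943909 and 36320250 normalized counts of mitochondrial genes and the 11-week libraries 29131935, 26087095 and 30453096. All other genes together held 26605130, 27787202 and 27741227 at 8 weeks and 28169092, 27942440 and 27299157 at 11 weeks, as the bars of both totals show. These totals depend on the deposited scaling, which sets the libraries to a common level over genes, whereas the shares above do not.

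**Figure D2:**
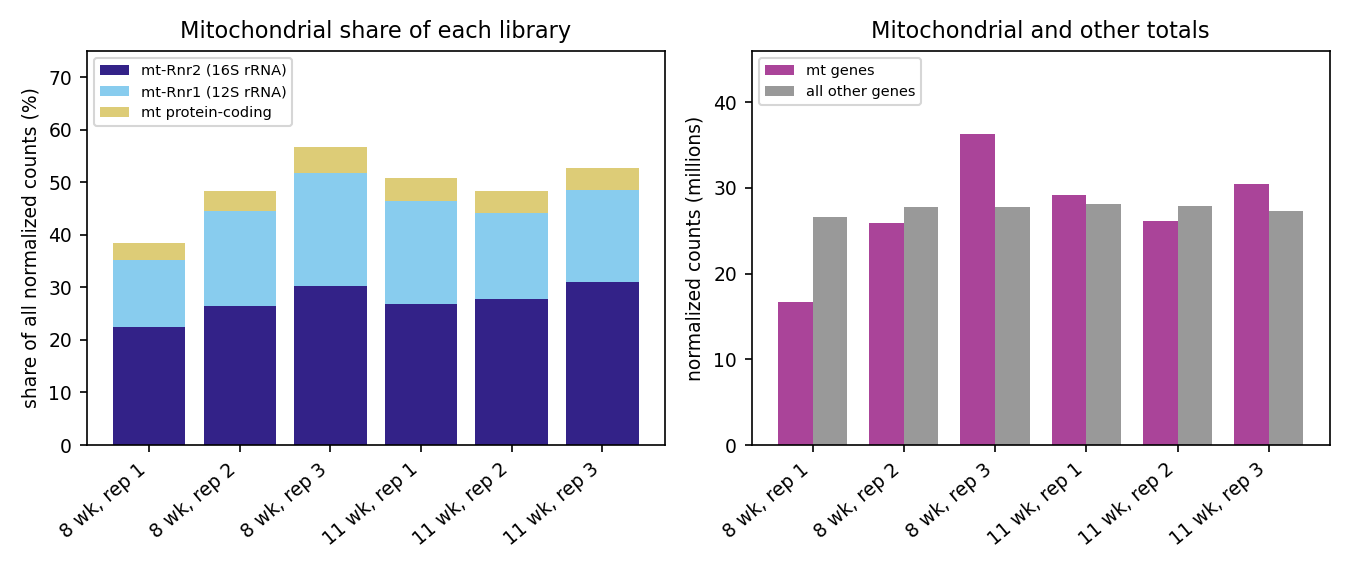
Left: share of all normalized counts (percent) taken by mt-Rnr2, mt-Rnr1 and the mitochondrial protein-coding genes in each library; the stacks reach from 38.5% in 8-week replicate 1 to 56.7% in 8-week replicate 3. Right: normalized counts, on an axis in units of 1e6, of all mitochondrial and of all other genes in the same libraries; the second kind of bar stays between 26605130 and 28169092.

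Ribosomal RNA made up nearly all of the mitochondrial signal that was counted. It was 91.3% to 92.1% of the mitochondrial total in every library, protein-coding genes were 7.86% to 8.72%, and transfer RNA genes 0.0098% to 0.0144%. The ages overlapped in all of these. The 6 protein-coding genes listed at 0 add nothing to these shares, nor to the ratio that follows. Mitochondrial protein-coding genes stood, per 1000 counts of ribosomal RNA, at 93.1, 86.5 and 94.1 at 8 weeks and at 95.6, 91.9 and 85.3 at 11 weeks, so this ratio had a narrow range while the mitochondrial total went from 16643348 to 36320250.

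mt-Rnr2 (ENSMUSG00000064339, chrMT:1094-2675), the RNA of the large mitochondrial ribosomal subunit, was the gene with the highest normalized count in every library. It had 9677704, 14216692 and 19344101 normalized counts in the 8-week libraries and 15339758, 15039611 and 17909274 in the 11-week libraries. mt-Rnr1 (ENSMUSG00000064337, chrMT:70-1024), the RNA of the small subunit, was second in every library, at 5545297, 9658756 and 13846358 at 8 weeks and 11246404, 8848976 and 10147787 at 11 weeks. In both genes 8-week replicate 1 was lowest, 8-week replicate 3 highest, and the ages overlapped. The log2 fold changes of 11 over 8 weeks, on the log2(normalized count + 1) scale used throughout, were 0.21 ± 0.27 for mt-Rnr2 and 0.15 ± 0.37 for mt-Rnr1 (SE, limma adjusted p = 0.843 and 0.929). Per kilobase of gene, mt-Rnr1 averaged 10347919 and mt-Rnr2 9642556 normalized counts, and which of the 2 was higher changed between libraries: the ratio of mt-Rnr2 to mt-Rnr1 per kilobase was 1.05, 0.889 and 0.843 at 8 weeks and 0.823, 1.03 and 1.07 at 11 weeks.

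Among the 7 protein-coding genes above 0, mt-Co1 (ENSMUSG00000064351, chrMT:5328-6872), which encodes the catalytic subunit of cytochrome c oxidase in complex IV, had the highest normalized count. It was at 456083, 751801 and 1008959 at 8 weeks and 778225, 795478 and 929386 at 11 weeks, which gave it rank 4 among all genes in every library. The ages overlapped, and 8-week replicate 1 was again lowest and replicate 3 highest. mt-Cytb (ENSMUSG00000064370, chrMT:14145-15288), the cytochrome b of complex III, was at 243253, 305192 and 446060 at 8 weeks and 383984, 349983 and 406274 at 11 weeks. Its log2 fold change of 0.24 ± 0.16 (SE) gave the smallest limma adjusted p among the mitochondrial genes, 0.759, and its 11-week values all lay within the 8-week range.

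The other messengers above 0 encode membrane subunits of complex I. mt-Nd1 (chrMT:2751-3707) had 261513, 352745 and 608054 normalized counts in the 8-week libraries and 522095, 355569 and 362492 in the 11-week libraries. mt-Nd2 (chrMT:3914-4951) was at 94190, 142481 and 230257 at 8 weeks and 184896, 159056 and 167440 at 11 weeks. mt-Nd4 (chrMT:10167-11544) was at 147716, 185146 and 322036 at 8 weeks and 256566, 153662 and 167324 at 11 weeks. In all 3 genes the highest 11-week library was replicate 1 and the ages overlapped. mt-Nd5 (chrMT:11742-13565) was at 188163, 280173 and 438928 at 8 weeks and 353832, 326716 and 313544 at 11 weeks. mt-Nd6 (chrMT:13552-14070), the sole messenger gene on the minus strand of the table, was at 27067, 47348 and 70259 at 8 weeks and 62027, 54816 and 46592 at 11 weeks. mt-Nd5 and mt-Nd6 overlap by 14 bases on opposite strands, and the sources used here do not say whether counting took strand into account. Reads from transcripts of the opposite strand of mt-Nd6 therefore cannot be told apart from its own.

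**Figure D3:**
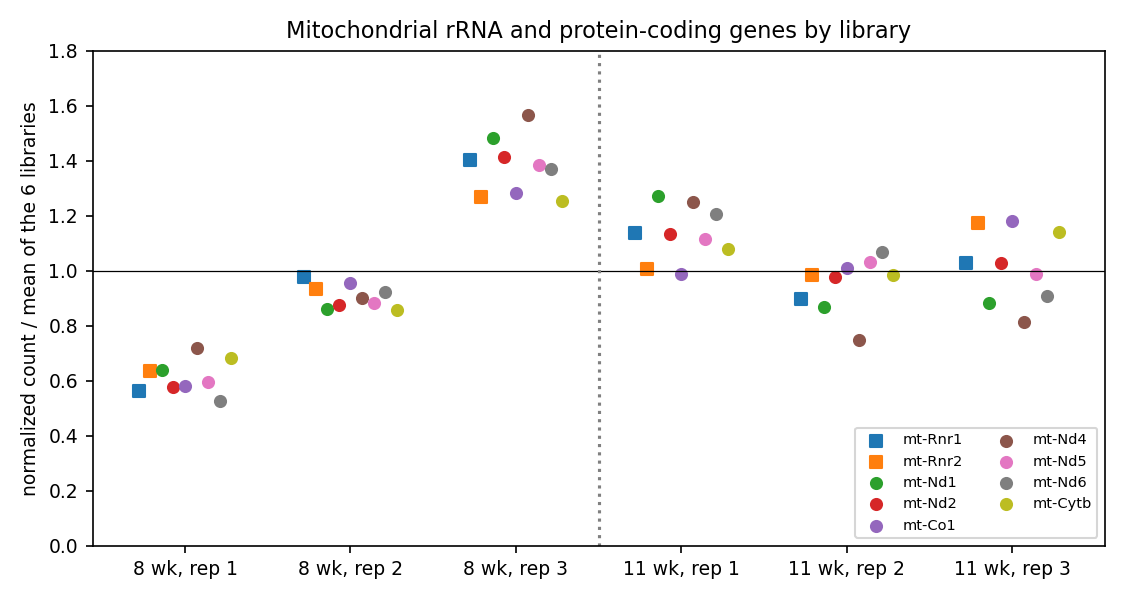
Normalized count of each mitochondrial rRNA gene (squares) and protein-coding gene above 0 (circles), divided by its mean over the 6 libraries, by library. All 9 genes are lowest in 8-week replicate 1 and highest in 8-week replicate 3.

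All 9 ribosomal RNA and protein-coding genes above 0 had their lowest value in 8-week replicate 1 and their highest in 8-week replicate 3. Their highest 8-week value was 1.83 to 2.60 times the lowest, and their highest 11-week value 1.13 to 1.67 times the lowest. The SD of the log2 values was larger at 8 than at 11 weeks in 9 of these 9 genes, with medians of 0.61 and 0.14, and in 13 of the 15 transfer RNA genes above 0. Over all genes tested it was larger at 8 weeks in 47.8%, and over the 387 nuclear genes that averaged 10000 or more normalized counts in 32.8%, with medians of 0.17 and 0.23. The difference in spread was not tested, and because the 9 genes moved together across libraries they are not 9 separate observations. Across 8-week replicates 1, 2 and 3, the mitochondrial share was lowest in replicate 1 and highest in replicate 3. The summed epithelial markers (9246, 10317 and 12706 normalized counts) and erythroid markers (7.2, 15.2 and 54.6) had this order. The opposite order held for the summed sort antigens (407250, 380544 and 332223) and neutrophil markers (317.4, 289.6 and 71.8). It also held for T cell (3209, 3110 and 2672), B cell (302.3, 95.6 and 25.6) and NK cell markers (131.1, 78.9 and 47). Neither order held for the summed macrophage (694340, 891716 and 704541), fibroblast (987.1, 1081 and 687.6) and endothelial markers (503.8, 404.6 and 543.1). How often all genes had either order across these 3 libraries is not given here. The part of these sums in the mitochondrial spread was not tested.

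None of the 24 mitochondrial genes that could be tested passed the test of age. All 24 passed the filter, which asked for 1 or more normalized counts on average in either age. The 13 listed at 0 were not tested, and limma called 0 of 24 at an adjusted p of 0.05, with 0 at an unadjusted p under 0.05. Over all 21675 genes tested, limma called 11 genes, a share of 0.0507% (0.0369% higher and 0.0138% lower at 11 weeks), so a count of 0 among 24 genes is near the background. edgeR on the recovered reads called 0 of the 22 it could test, against 0.0201% of all genes, and DESeq2 0 of the 23 with an adjusted p (all but mt-Tr), against 2.85% of all genes, with 0 at an unadjusted p under 0.05 by either tool. The authors' deposited table gives an adjusted p for 21 of the 37, with 0.581 the smallest. The median log2 fold change of the 24 genes was 0.17, against 0.052 over all genes tested, with 16 positive and 8 negative. Without 8-week replicate 3 the median was 0.45 and 8 genes had an unadjusted limma p under 0.05, with 0 called (smallest limma adjusted p = 0.421). The share of all genes under that p is not given here for this fit, and with all 6 libraries it was 8.03%. Many mitochondrial genes moved together across libraries, so these 8 are not separate observations. Without 8-week replicate 1 the median was -0.14.

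**Figure D4:**
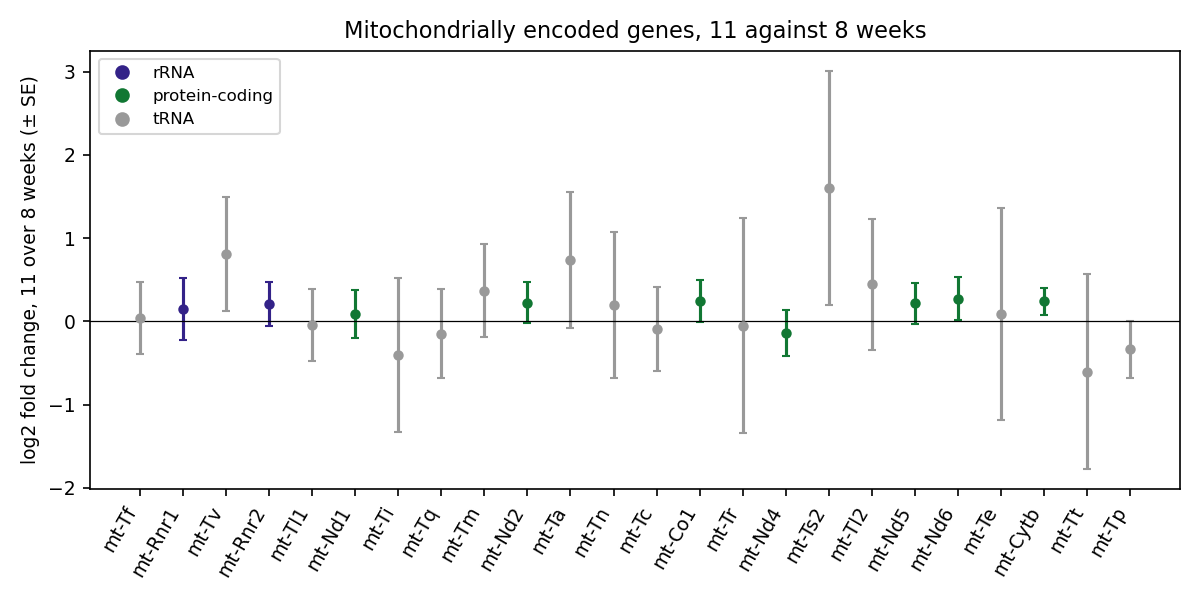
Log2 fold change of 11 over 8 weeks with its standard error from limma for the 24 mitochondrial genes tested, in genome order, coloured by kind of RNA. The protein-coding genes lie between -0.14 and 0.27, and the transfer RNA genes spread from -0.60 to 1.6 with standard errors up to 1.41.

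The balance between messengers was compared next, since a ratio within a library does not depend on how the library is scaled. It covers the 7 of 13 protein-coding genes above 0, so the shares below are not shares of all messengers. Whether reads that also match nuclear copies were counted for mt-Co1 and mt-Nd4 is not settled here. At 8 weeks mt-Co1 made up 32.2%, 36.4% and 32.3% of the mitochondrial protein-coding counts and at 11 weeks 30.6%, 36.2% and 38.8%. mt-Nd1 made up 18.4%, 17.1% and 19.5% and then 20.5%, 16.2% and 15.1%. mt-Cytb made up 17.2%, 14.8% and 14.3% and then 15.1%, 15.9% and 17.0%. The 11-week libraries thus differed from each other more than the average 11-week library did from 8 weeks: replicate 1 had the lowest share of mt-Co1 and the highest share of mt-Nd1 of all 6 libraries, and replicate 3 the reverse. The complex I genes above 0 together were 50.7%, 48.8% and 53.4% at 8 weeks and 54.3%, 47.8% and 44.2% at 11 weeks.

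In all, 15 quantities were compared between ages with the two-sided exact permutation test over samples, 7 single-gene shares and 8 ratios of 2 genes. With 3 libraries against 3 the smallest p this test can give is 0.1, so none could pass 0.05. The smallest p found was 0.2, for mt-Nd4 and for mt-Nd5 over mt-Nd4 (Benjamini-Hochberg adjusted p = 0.875 over the 15). mt-Nd4 was 10.4%, 8.97% and 10.3% of the protein-coding counts at 8 weeks and 10.1%, 7.0% and 6.99% at 11 weeks. In 11-week replicates 2 and 3 mt-Nd4 lay below the 8-week range, and in replicate 1 inside it. The ratio of mt-Nd5 to mt-Nd4 was 1.27, 1.51 and 1.36 at 8 weeks and 1.38, 2.13 and 1.87 at 11 weeks. The neighbouring pair on opposite strands, mt-Nd6 over mt-Nd5, held a narrower range, 0.144 to 0.175 over all 6 libraries (exact permutation p = 0.6, adjusted p = 0.875). The ages overlapped in all 15 quantities.

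The order of the 7 messengers above 0 depended on the length used. Per kilobase of gene, the means over the 6 libraries were 509162 normalized counts for mt-Co1, 428852 for mt-Nd1, 311006 for mt-Cytb, 173735 for mt-Nd5, 157084 for mt-Nd2, 149063 for mt-Nd4 and 98943 for mt-Nd6. Within libraries, mt-Nd1 was above mt-Cytb, mt-Cytb above mt-Nd5, mt-Nd5 above mt-Nd2 and mt-Nd4 above mt-Nd6 in 6 of 6, mt-Co1 was above mt-Nd1 in 5 of 6, and mt-Nd2 above mt-Nd4 in 3 of 6, so that pair had no set order. The count of the whole gene was then divided by the number of its 50-base windows without a match in a nuclear transcript. Per kilobase of this length, mt-Co1 was at 1076136 and mt-Nd4 at 409180 normalized counts. The mean of mt-Nd4 then lay between those of mt-Nd1 (451995) and mt-Cytb (324923), and no longer below mt-Nd5 (193227) and mt-Nd2 (179574). Within libraries, mt-Nd4 was below mt-Nd1 in 5 of 6 and above mt-Cytb in 4 of 6. mt-Nd6 had the lowest mean of the 7 at 109259. This second length was chosen after the data were seen, and the sources used here do not give the read length. It would give a level only if no read from the matched windows was counted, which those sources do not settle.

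Transfer RNA genes were counted at much lower levels than messengers. They are 59 to 75 bases long, and how completely RNAs this short entered the libraries was not tested. Their counts and shares are therefore not amounts of transfer RNA. Of 22, 15 were above 0, with means of 2.97 to 1261 normalized counts, and the 5 highest (mt-Tp, mt-Tf, mt-Tl1, mt-Tc and mt-Tq) held 81.2% of the transfer RNA counts averaged over libraries. They are shown whole because they carry most of this class, with the anticodon, the 3 bases that read the codon, in capitals. In order they cover chrMT:15356-15422 (minus strand), chrMT:1-68 (plus), chrMT:2676-2750 (plus), chrMT:5192-5257 (minus) and chrMT:3772-3842 (minus).
mt-Tp: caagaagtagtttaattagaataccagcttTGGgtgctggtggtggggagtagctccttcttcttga
mt-Tf: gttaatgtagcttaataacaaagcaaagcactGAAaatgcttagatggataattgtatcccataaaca
mt-Tl1: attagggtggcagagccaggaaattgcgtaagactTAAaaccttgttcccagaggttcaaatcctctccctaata
mt-Tc: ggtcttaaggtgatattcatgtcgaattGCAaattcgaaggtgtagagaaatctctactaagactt
mt-Tq: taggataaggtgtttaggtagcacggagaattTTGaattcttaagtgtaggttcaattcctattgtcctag

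mt-Tp, the proline transfer RNA beside the control region, had 891.6, 1442 and 1926 normalized counts in the 8-week libraries and 1462, 965.7 and 879.2 in the 11-week libraries. mt-Tf, the phenylalanine transfer RNA that opens the heavy-strand transcript before mt-Rnr1, was at 367.4, 515.4 and 720 at 8 weeks and 879, 418.4 and 404.2 at 11 weeks. In both the highest 11-week library was replicate 1, and the ages overlapped. mt-Tl1, the leucine transfer RNA between mt-Rnr2 and mt-Nd1, was at 297.8, 507 and 685 at 8 weeks and 573.8, 430.5 and 384.3 at 11 weeks. mt-Tc, for cysteine, was at 213.1, 311.7 and 682.4 and then at 329.2, 398.2 and 286.4. mt-Tq, for glutamine, was at 178.3, 224.4 and 408.3 and then at 182.1, 247 and 267.4. In these 5 genes 8-week replicate 1 had the lowest value of all libraries, except in mt-Tp, where 11-week replicate 3 did. Per kilobase, mt-Tp averaged 18823 normalized counts, against 98943 for mt-Nd6 and 10347919 for mt-Rnr1.

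The other 10 transfer RNA genes above 0 ranged from 0.9 to 278.2 normalized counts. One gene of the 24, mt-Tv, the valine transfer RNA between the ribosomal RNAs, had values that did not overlap between ages. It had 74, 124.7 and 70.9 normalized counts in the 8-week libraries and 188.5, 143.1 and 131.4 in the 11-week libraries, so all the 11-week libraries were higher, and the log2 fold change was 0.81 ± 0.68 (SE, adjusted p = 0.805 by limma). Values that do not overlap were found in 11.9% of all genes tested, 6.81% higher and 5.12% lower at 11 weeks, so 1 of 24 is below the background share. The largest log2 fold change, 1.6 ± 1.41 (SE) for mt-Ts2, rested on 1.4 to 18.4 normalized counts. The table puts 8 transfer RNA genes on the minus strand, and these held 57.6% of the transfer RNA counts, but without strand in the counting reads of the 2 strands cannot be told apart.

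Genes that act on the mitochondrial genome from the nucleus were looked at through 7 fixed lists, holding 180 genes, of which 179 were tested. limma called 0 of 179 in either direction, beside 0.0507% over all genes, with 9, or 5.03%, at an unadjusted p under 0.05, against 8.03% over all genes tested. edgeR also called 0 of these genes. DESeq2 called 2 of the 176 with an adjusted p, Mrpl12 and Top1mt (DESeq2 adjusted p = 0.000934 and 0.0147), or 1.14%, which is below its 2.85% over all genes. Values did not overlap between ages in 19 of the 179, or 10.6%, with 14 higher and 5 lower at 11 weeks, against 11.9% over all genes tested. The median log2 fold change was 0.094, against 0.052 over all genes tested, with 109 positive and 70 negative.

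The genes of transcription were at low levels and held no called difference. Polrmt, the mitochondrial RNA polymerase, had 99, 220.3 and 152.9 normalized counts in the 8-week libraries and 249.2, 132.1 and 175.8 in the 11-week libraries. Tfam, which packages mitochondrial DNA and opens its promoters, was at 387.9, 311.7 and 514.2 and then at 294.2, 611.9 and 224.8. Their limma adjusted p were 0.92 and 0.921, and the ages overlapped in both. Tfb2m, the factor that helps the polymerase melt a promoter, was at 165.8, 230 and 199.9 and then at 217, 770.2 and 560.1 (limma adjusted p = 0.606), with 1 of its 11-week libraries inside the 8-week range. Mterf2, of the family named for mitochondrial transcription termination, was at 57.1, 11.1 and 0 and then at 1.8, 0 and 0 (limma adjusted p = 0.709). The 10 genes of this list had a median log2 fold change of 0.15, with 6 positive.

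The 34 genes of RNA processing and stability had a median log2 fold change of -0.023, with 16 positive and 18 negative. Lrpprc, which stabilises mitochondrial messengers, had 1140, 1947 and 1295 normalized counts in the 8-week libraries and 1117, 1553 and 1489 in the 11-week libraries. Pnpt1, an exoribonuclease of mitochondria, was at 658, 594.3 and 474.9 and then at 592.1, 304.4 and 476.7. Elac2, which cuts the 3′ ends of transfer RNAs, was at 272.8, 138.5 and 685 and then at 217.9, 366.9 and 366.2. The limma adjusted p of these 3 were 0.971, 0.829 and 0.984, and the ages overlapped in each. The smallest p of the list was that of Nsun3, which modifies the methionine transfer RNA, with 584, 216.1 and 418.5 normalized counts in the 8-week libraries and 655.6, 1055 and 844.7 in the 11-week libraries (limma adjusted p = 0.489). Next was Rpusd3, a pseudouridine synthase, at 1.4 to 20.5 and then 26.3 to 153.2 normalized counts (limma adjusted p = 0.619). In both the 11-week libraries all lay above the 8-week libraries.

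The 15 genes of mitochondrial DNA maintenance had a median log2 fold change of 0.041. Top1mt, the mitochondrial topoisomerase, had 105.2, 92.8 and 257.9 normalized counts in the 8-week libraries and 29.4, 9.1 and 2.7 in the 11-week libraries, with no overlap, and its log2 fold change was -3.72 ± 1.11 (SE, adjusted p = 0.322 by limma). Polg2, the accessory subunit of the DNA polymerase, was at 1653, 2776 and 2836 and then at 1799, 705.7 and 1589 (limma adjusted p = 0.529), with overlap.

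The 77 mitochondrial ribosomal protein genes tested had a median log2 fold change of 0.27, with 50 positive and 27 negative, and 11 whose values did not overlap between ages, which is 14.3% of the list, near the 11.9% over all genes tested. Mrpl12 had the smallest p of all the lists. It had 170.3, 98.4 and 158 normalized counts in the 8-week libraries and 513.1, 476.8 and 415.1 in the 11-week libraries, and its log2 fold change was 1.75 ± 0.50 (SE, adjusted p = 0.31 by limma). Mrps5 was at 405.7, 417 and 502.2 and then at 239.1, 132.1 and 224.8 (limma adjusted p = 0.551). In both genes the ages did not overlap. The sum of the epithelial markers given above also differed between ages without overlap, as did 5 of its 12 genes, and their part in these values was not tested.

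Among the 19 genes that charge mitochondrial transfer RNAs, the median log2 fold change was 0.093. Lars2, the leucine enzyme that charges mt-Tl1 and mt-Tl2, had 124869, 139642 and 143153 normalized counts in the 8-week libraries and 171134, 191502 and 151054 in the 11-week libraries, with no overlap, and its log2 fold change was 0.33 ± 0.12 (SE, adjusted p = 0.453 by limma). None of the 25-base windows of its reference transcripts occurs in a mitochondrial gene on either strand (0 shared). Only mitochondrial genes were searched for these windows, so other sources of reads at Lars2 were not examined. Kars, which charges lysine transfer RNAs of cytosol and mitochondria, was at 699.9, 723.2 and 867.8 and then at 937.9, 987.9 and 1244 (limma adjusted p = 0.772), also without overlap. The 16 translation factors had a median of 0.048, with 0 called, and the smallest p were those of Tsfm, an elongation factor, at 132, 109.4 and 29 and then 34, 20.2 and 29 normalized counts, and of Mtif2, an initiation factor, at 818.5, 382.4 and 1101 and then 649.2, 574.6 and 206.6 (limma adjusted p = 0.777 and 0.781). The 8 biogenesis regulators had a median of 0.26. Nrf1, a transcription factor of nuclear mitochondrial genes, was at 2008, 816 and 750.8 and then at 939.7, 2123 and 2686, and Gabpb1, a subunit of another, at 978.1, 980.8 and 714.9 and then at 739.3, 607.9 and 535.7 (limma adjusted p = 0.721 and 0.769), both with overlap.

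**Figure D5:**
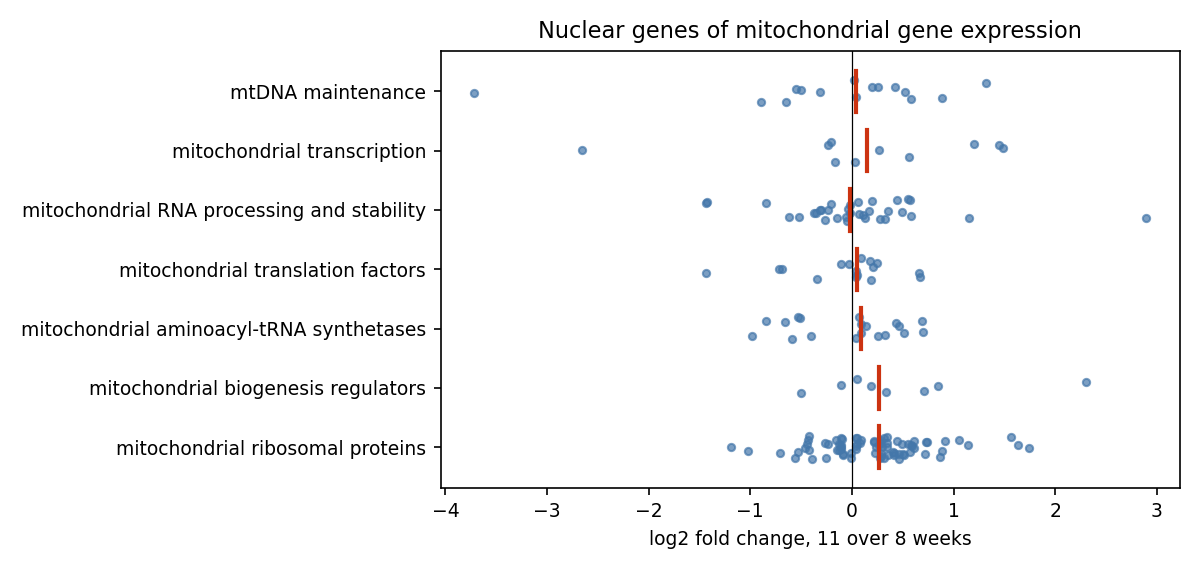
Log2 fold change of 11 over 8 weeks from limma for each tested gene of the 7 lists of nuclear genes (points, spread vertically at random for visibility), with the median of each list as a red line. The medians lie between -0.023 for RNA processing and 0.27 for ribosomal proteins.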

How the data were processed

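The authors deposited 1 table with a signal value per gene and library, called a normalized count here; judged from the whole multiples in it, each library was scaled by 1 factor of its own. Per the submitters' processing notes, STAR 2.4, DESeq2 1.6 and GRCm38 were used, with no role given. The sources used here do not give the counter, its use of strand or its treatment of reads that match several places. Beside these values the deposited table holds the authors' comparison as log2 fold change, fold ratio and p-value.

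Divided by the worth of 1 read, 99.834% or more of the nonzero values in each library came out whole (tolerance 0.05 normalized counts). limma (trend, robust) was fitted on log2(value + 1) over all genes with a mean of at least 1 in either age, with age the only term and Benjamini-Hochberg adjustment. Spans and strands of all 37 members equalled GENCODE M21 (GRCm38), whose transcripts gave the sequences. Members, lists and tests were chosen with earlier results of these data known. Values per library are given for both ribosomal RNA genes, the protein-coding genes and the 5 transfer RNA genes of highest mean. Nuclear genes named are any called, the 2 of smallest limma p in each list, and Polrmt, Tfam, Lrpprc, Pnpt1 and Elac2; mt-Tv and mt-Ts2 were singled out after their values were seen.

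The limma, edgeR and DESeq2 fits were tested on simulated counts, and the other steps were not. No 2 libraries of an age held identical values. Fits used limma 3.58.1, edgeR 4.0.16 and, for one alternative, DESeq2 1.42.0 under R 4.3.3, while sums, sequence searches and plots used numpy 2.4.6, matplotlib 3.10.9, pandas 2.3.3 and Python 3.11.15. Alternatives covered scaling, filter, pseudocount, test, replicate block, length and left-out libraries.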

Additional observations from a re-analysis of the deposited data

How the results depend on the processing

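The count of 0 mitochondrial genes called held under every alternative run, with 22 to 24 genes tested. The count over all genes, 11, was 4 with scaling to library totals, 3 with edgeR, 449 with DESeq2 and 3 to 16 with 1 library left out (3 without 8-week replicate 1, 4 without 11-week replicate 1, 16 without 11-week replicate 2). Of the nuclear lists 2 genes were called by DESeq2 and 0 in all other fits run. With the replicate block 45 genes were called, 0 of them mitochondrial. The shared numbers gave no sign of pairing: same-numbered libraries had correlations of their deviations of -0.026, -0.0041 and -0.024. Libraries of different number had 0.0010 to 0.025. With 3 libraries per age, such correlations cannot settle whether samples were paired. In this balanced design the block cannot change a difference of means. Leaving out 1 library moved the difference in share (11 minus 8 weeks, percentage points) from -1.87 to 7.23 for all mitochondrial genes, -1.73 to 6.58 for ribosomal RNA, -0.15 to 0.65 for protein-coding genes and -0.0013 to 6.94e-05 for transfer RNA, the lowest without 8-week replicate 1 and the highest without 8-week replicate 3. Without 8-week replicate 1, 9 of 24 genes changed sign. Scaling to library totals shifted the median of all genes by -0.086 and left 14 mitochondrial genes positive and 10 negative. By counting error alone, a count of 0 allows 3 reads, or 4.0e-06% to 7.7e-06% of a library; this is no bound for genes whose reads may have been left out for matching several places, which the sources used here do not settle.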
